A study of Drosophila melanogaster with 3 samples.

Results

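The 10 genes described here are a hand-picked group of Drosophila neural genes: elav, fne and Rbp9 of the ELAV family, the neuronal zinc-finger genes scrt and nerfin-1, the cell fate determinants pros and brat, and the neuroblast genes ase, wor and dpn. They are 10 of the 13945 protein-coding genes on the 6 chromosome arms in the Ensembl annotation, release 115 (BDGP6.54, the assembly called dm6 in the deposited lists). The study mapped where a GFP-tagged Dad protein is found on chromatin in the whole fly embryo. The flies carried a stable transgene with GFP fused to the C-terminal end of Dad. Whole embryos of mixed sex, 0 to 24 hours old, were immunoprecipitated with an antibody to GFP, and 3 biological replicates form the single group. No untagged or input sample was analysed here, so no comparison between groups was possible. Whole embryos mix neural and other cells, and cells of different ages, so a signal at a neural gene cannot be assigned to a cell type.

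Dad, short for Daughters against dpp, encodes an inhibitory Smad that dampens signalling by the BMP-type ligand Dpp, whose activated Smads, Mad and Medea, bind DNA. In the embryonic nervous system, neuroblasts delaminate from the neuroectoderm and divide asymmetrically, and their daughters leave the stem cell programme and become neurons. The genes studied act at successive steps: ase, wor and dpn encode transcription factors of neuroblasts, pros and brat encode proteins that neuroblasts pass to the daughter cell, scrt and nerfin-1 encode transcription factors of differentiating neurons, and elav, fne and Rbp9 encode RNA-binding proteins used in neurons. The optimal list is the set of regions that the authors kept for being reproducible across replicates, and it holds 3392 peaks. The longer lists, called on the pooled replicates and on each replicate, hold 30000 regions each and include background by design. The signal is the peak caller's value for a region, and rank 1 is the region with the highest signal in its list.

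The sequences around 6 optimal peak summits that the results turn on are shown here, each 201 bases long and written 5′ to 3′ on the strand of the gene, from the RefSeq sequence of the same assembly. They are the 2 strongest peaks at elav, the peaks next to the starts of scrt and brat, the strongest peak at brat, and the distant peak at nerfin-1. Capitals mark matches on either strand to any of 9 short motifs. These include TATCGAT, known as the DRE element, CGATA, known from the insulator protein BEAF-32, GAGAG, bound by the Trithorax-like factor, CAGGTAG, bound by the early embryonic factor Zelda, the E-box CAGCTG, and the related E-box spelled CAGGTG. The others are the motif known for binding Mad, which is GNCGNC, the motif known for binding Medea, which is GTCTG, and the simple repeat CACACA. Every match to TATCGAT, read from the opposite strand, also holds a match to CGATA.
elav, 244 bp upstream, chrX:523370-523570 (minus strand): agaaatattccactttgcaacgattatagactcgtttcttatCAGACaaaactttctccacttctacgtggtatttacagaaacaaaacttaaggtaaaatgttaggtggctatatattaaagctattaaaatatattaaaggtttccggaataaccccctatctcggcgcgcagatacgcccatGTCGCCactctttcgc
elav, first intron, chrX:522567-522767 (minus strand): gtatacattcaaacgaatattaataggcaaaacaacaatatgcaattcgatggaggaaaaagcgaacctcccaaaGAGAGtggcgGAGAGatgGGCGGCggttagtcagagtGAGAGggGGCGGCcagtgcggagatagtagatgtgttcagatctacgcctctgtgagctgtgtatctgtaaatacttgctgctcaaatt
scrt, 339 bp upstream, chr3L:3983457-3983657 (plus strand): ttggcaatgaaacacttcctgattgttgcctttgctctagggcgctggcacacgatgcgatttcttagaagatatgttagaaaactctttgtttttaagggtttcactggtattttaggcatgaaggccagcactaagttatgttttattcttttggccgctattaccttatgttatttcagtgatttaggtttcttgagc
brat, 204 bp upstream, chr2L:19133512-19133712 (plus strand): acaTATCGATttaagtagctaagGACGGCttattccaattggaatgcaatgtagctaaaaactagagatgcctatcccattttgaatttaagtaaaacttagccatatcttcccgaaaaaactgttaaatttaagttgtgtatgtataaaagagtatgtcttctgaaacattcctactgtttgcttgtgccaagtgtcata
brat, intron, chr2L:19165053-19165253 (plus strand): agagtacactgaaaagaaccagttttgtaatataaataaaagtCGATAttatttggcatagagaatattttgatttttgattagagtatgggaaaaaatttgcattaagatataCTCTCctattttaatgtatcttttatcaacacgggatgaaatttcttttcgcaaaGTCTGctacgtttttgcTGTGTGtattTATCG
nerfin-1, 4569 bp upstream, chr3L:904443-904643 (plus strand): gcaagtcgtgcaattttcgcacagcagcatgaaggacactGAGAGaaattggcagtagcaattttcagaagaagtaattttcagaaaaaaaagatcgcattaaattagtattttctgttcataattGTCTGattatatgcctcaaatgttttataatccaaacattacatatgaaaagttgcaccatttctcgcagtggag

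An optimal peak had its summit in the gene or within 5 kb of it (the gene rule) at 6 of the 10 genes (60%), beside 43.4% of all coding genes. These were elav with 3 peaks, brat with 5, Rbp9 and pros with 2 each, and scrt and nerfin-1 with 1 each, 14 peaks in all. The neuroblast genes ase, wor and dpn had none, and neither did fne. The distance from a summit to an annotated transcription start site (TSS) was 500 bp or less (the promoter rule) at 4 of the 10 (elav, scrt, pros and brat, 40%), beside 18.4% of all coding genes. With 10 genes, each gene moves such a share by 10 percentage points. Pooled regions, which include background, were found at all 10 genes and at 87% of coding genes. When regions shared by the top 3392 of just 2 replicates took the place of the optimal list, 9 regions were left at these genes without replicate 1. By the gene rule elav, Rbp9, scrt, pros and brat kept a region in each case. The share of all coding genes was then 32.3%, 34.4% and 32.8% without replicates 1, 2 and 3. The nerfin-1 peak was in the top 3392 of replicate 1 alone, so no list shared by 2 replicates could hold it. Promoter regions then remained at elav and scrt without replicate 1, at elav, scrt and brat without replicate 2, and at elav, scrt and pros without replicate 3, while the share of all coding genes with one was 12.4%, 13.6% and 12.8%.

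The 14 peaks were of ordinary strength for this data set. Their signals had a median of 115.2 and ranged between 87.6 and 374.4, against a median of 121.7 and a range between 80.7 and 1827 over all optimal peaks. Of the 14, 6 lay above and 8 below the median of all. Of the 14, 8 were among the top 3392 regions of all 3 replicates, 4 among those of 2 and 2 among those of 1. All 14 overlapped a region in each full replicate list. To set replicates side by side, each signal was divided by the median over optimal peaks in its replicate (42.6, 35.6 and 51.1 in replicates 1, 2 and 3). On that relative scale the coefficient of variation over replicates had a median of 25.6% for the 14 peaks and 23.1% for all optimal peaks.

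**Figure D1:**
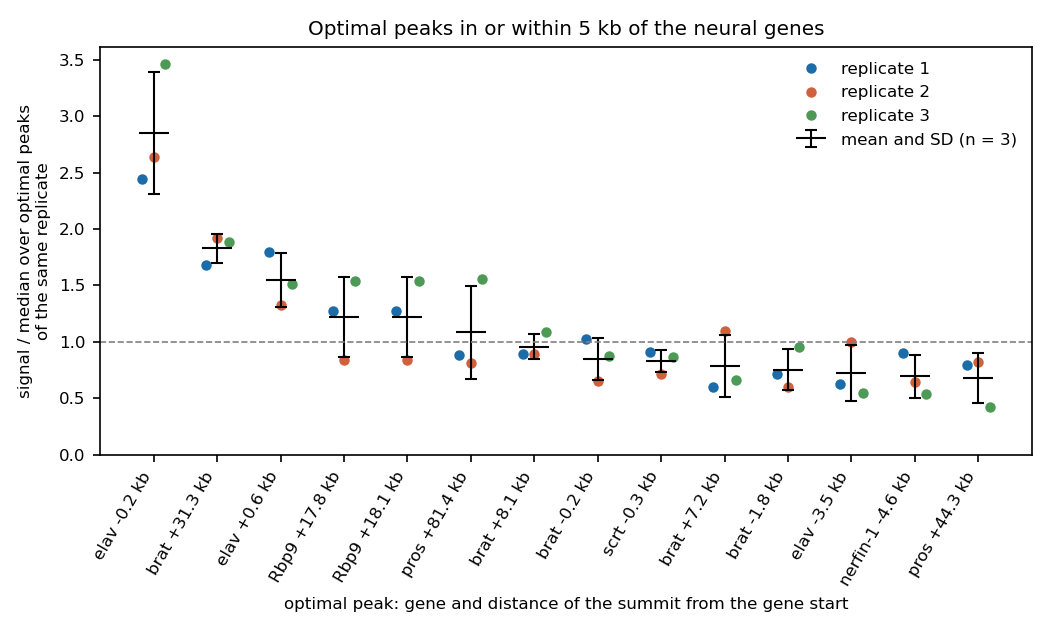
Relative signal (vertical axis, signal divided by the median over optimal peaks of the same replicate) of the 14 optimal peaks, ordered by mean; points are the 3 replicates, and black bars are the mean and SD (n = 3). The peak 244 bp upstream of elav stands at 2.85, the strongest brat peak at 1.83, and most of the others lie at or below the dashed line at 1.

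The family of elav gave 1 strong gene, 1 gene whose peaks lie beside its neighbours, and 1 gene without a peak. elav (FBgn0260400, X:509235-523226, minus strand), whose protein marks neurons and controls their splicing and 3′ ends, overlaps arg, the arginase gene on the other strand, whose intron spans the elav start. Its strongest peak, X:523343-523643, had a pooled signal of 374.4 and rank 158, above 95.3% of the optimal peaks, with the summit 244 bp upstream of the TSS. Replicates 1, 2 and 3 gave 104.3, 93.8 and 177.1, at ranks 242, 192 and 124. Every replicate placed it among the 1% of highest signal in its list, and its relative signal was 2.85 ± 0.541 (SD, n = 3).

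The second elav peak, X:522462-522871, lay 559 bp downstream of the same TSS, in an intron shared by elav, arg and lncRNA:enrr, and its summit was 803 bp from that of the first. Its pooled signal was 200.6 at rank 670. Its replicate signals were 76.8, 47.2 and 77.2, at ranks 510, 946 and 789, with a relative signal of 1.55 ± 0.239 (SD, n = 3). In each of the 3 replicates the upstream peak was the higher of the pair. A weaker peak, X:526496-526905 (pooled signal 97.1, rank 2492), lay 3475 bp upstream in the arg intron, with CG4293 the nearest coding TSS at 3148 bp. It was in the top 3392 of replicate 2 alone (rank 1688), against ranks 4009 and 4499 in replicates 1 and 3. Elsewhere in elav the pooled list held lower regions, such as one in its 3′ UTR with signal 51.5 at rank 6924.

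Rbp9 (FBgn0010263, 2L:2954762-2968434, plus strand), a relative of elav that works in neurons and in the germ line, had both its peaks beyond its 3′ end. The peaks 2L:2972403-2972812 (signal 161.1, rank 997) and 2L:2972760-2972898 (signal 165.6, rank 950) overlap, with summits 225 bp apart and 4174 and 4399 bp past the gene. The nearest coding TSSs belonged to Rrp1, a DNA repair gene, at 100 bp and to gammaTub23C, a γ-tubulin gene, at 58 bp. The TSSs of Rbp9 were 13461 and 13686 bp away. Replicate 1 had a single region over both peaks, with signal 54.3. The other replicates had a separate region near each summit, with signals of 27.4 and 29.8 in replicate 2 and 78.8 and 77.0 in replicate 3. As these regions overlap both peaks, the strongest gave both the same values, 54.3, 29.8 and 78.8. The relative signal of 1.22 ± 0.355 (SD, n = 3) therefore does not tell the peaks apart. These peaks count for Rbp9 through the 5 kb rule alone. Inside the gene, the strongest pooled region, 2L:2957602-2958011, was intronic, 896 bp from a TSS, with signal 60.1 at rank 5385 and a −log10 q of 2.32. It was outside the optimal list.

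fne (FBgn0086675, X:12917477-12950417, plus strand), the third family member, had 5 pooled regions and no optimal peak, although at 32941 bp it is a long gene. Its strongest pooled region, in the 3′ UTR, had signal 49.7 at rank 7387 and a −log10 q of 1.47. The strongest region of each replicate lay at a different place: in the 3′ UTR in replicate 1 (signal 27.5, rank 3769), in an intron 5873 bp from a TSS in replicate 2 (18.4, rank 6510) and 368 bp from an internal TSS in replicate 3 (26.1, rank 4984). None of these was in the top 3392 of its list.

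**Figure D2:**
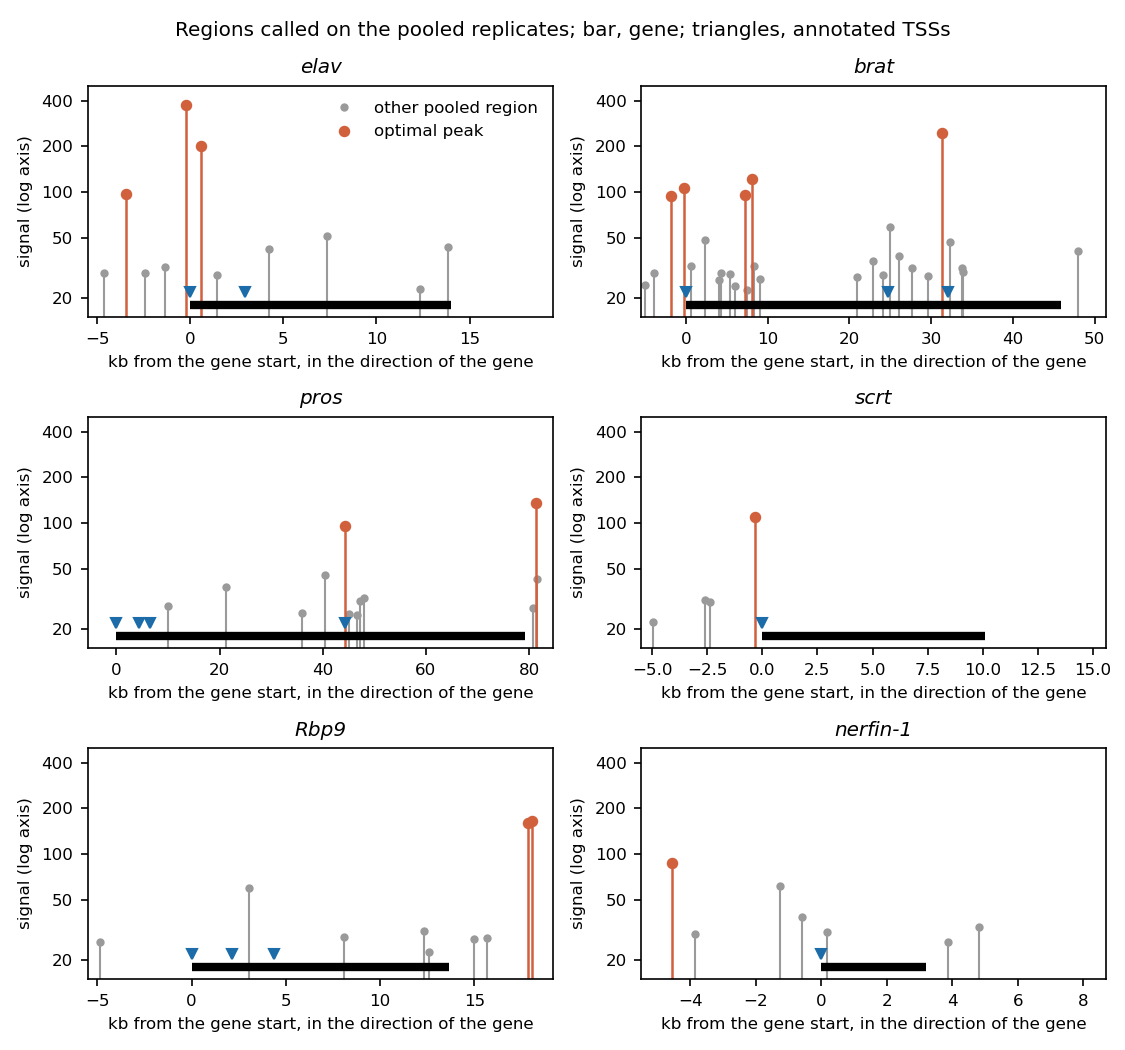
Signal (vertical, log axis) of every pooled region in or within 5 kb of 6 genes, against the distance of its summit from the gene start in kb; orange, optimal peaks; grey, other pooled regions; black bar, the gene; triangles, annotated TSSs. The elav peaks flank its start, the brat peaks spread over its start and introns, and the Rbp9 peaks lie beyond the gene's end.

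Among the neuronal transcription factors, scrt (FBgn0004880, 3L:3983896-3994003, plus strand), which encodes a Snail-family zinc-finger protein, had the plainest setting, since no other gene lies within 5 kb of it. Its peak, 3L:3983352-3983761, had its summit 339 bp upstream of its annotated TSS, with a pooled signal of 109.4 at rank 2016. Replicates 1, 2 and 3 gave signals of 38.8, 25.5 and 44.1, at ranks 1970, 3374 and 2116. It was thus below the median optimal peak but close in all 3 replicates, with a relative signal of 0.829 ± 0.0998 (SD, n = 3). In replicate 2 it was only just inside the top 3392. The other 3 pooled regions at scrt were upstream and had signals of at most 31.2.

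nerfin-1 (FBgn0028999, 3L:909112-912319, plus strand), a zinc-finger gene needed for axon guidance and for keeping neurons differentiated, had a single weak and distant peak. The peak 3L:904338-904747 lay 4569 bp upstream, with mat the nearest coding TSS at 1645 bp. Its pooled signal of 87.6 at rank 2970 exceeded that of 12.4% of optimal peaks. The signals were 38.5, 22.9 and 27.3 in replicates 1, 2 and 3, at ranks 1990, 4191 and 4629, so it was in the top 3392 of replicate 1 alone. Nearer to the gene, a region 1249 bp upstream, 3L:907658-908067, had signal 61.6 at rank 5175 and a −log10 q of 2.50, and another 589 bp upstream had signal 38.3 at rank 11614. Neither was in the optimal list. With 7 pooled regions in a window of 13.2 kb, nerfin-1 had the highest density of the 10 genes, 5.30 per 10 kb.

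pros (FBgn0004595, 3R:11328480-11407627, plus strand) encodes the homeodomain protein Prospero, which enters the nucleus of the neuroblast's daughter. It is the longest of the 10 genes, at 79148 bp, with 4 annotated TSSs. One of its peaks, 3R:11372610-11373019, lay in the 5′ UTR, 27 bp downstream of an internal TSS 44.3 kb into the gene, and had a pooled signal of 95.9 at rank 2548. Replicates 1, 2 and 3 gave signals of 33.8, 29.2 and 21.5, at ranks 2555, 2591 and 6894, so replicate 3 fell outside the top 3392. Its relative signal, 0.678 ± 0.224 (SD, n = 3), was the lowest mean of the 14. This window was also the richest in G and C of the 14, at 57.2%, and held 6 matches to GNCGNC. The other peak, 3R:11409849-11409951 (pooled signal 135.7, rank 1391), lay 2253 bp past the gene and 5 bp from the TSS of mgr, which encodes a prefoldin subunit. Its signals were 37.6, 29.0 and 79.6 in replicates 1, 2 and 3, a relative signal of 1.08 ± 0.410 (SD, n = 3), and at 37.8% its variation was the highest of the 14.

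The lists disagreed at another place in pros, which was singled out after its values were seen. In replicate 1 the strongest region at pros was in its 3′ UTR, 3R:11392800-11393179, with signal 42.6 at rank 1649. Replicate 2 had an overlapping region, 3R:11392776-11393179, with signal 29.0 at rank 2637. Both were in the top 3392 of their replicate. Replicate 3 had no overlapping region, and the nearest pooled summit was 16170 bp away, so the place appears in neither the pooled nor the optimal list.

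brat (FBgn0010300, 2L:19133816-19179758, plus strand) encodes a translational repressor that the neuroblast passes to its daughter and that limits growth in the larval brain. With 5 optimal peaks it had more than any other of the 10 genes. Only 0.66% of all coding genes had as many, and 5.33% of the 1013 coding genes longer than 20 kb, brat being 45943 bp long. Its strongest peak, 2L:19164948-19165357, lay in an intron 714 bp upstream of the third annotated TSS, with a pooled signal of 244.4 at rank 433. Replicates 1, 2 and 3 gave 71.9, 68.5 and 96.3, at ranks 603, 420 and 483. Its relative signal of 1.83 ± 0.127 (SD, n = 3) varied by 6.95% over replicates, the least of the 14 peaks.

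Of the other brat peaks, 2 were intronic, 889 bp apart and far from any coding TSS. The peak 2L:19141695-19142104 (pooled signal 121.1, rank 1712) was 8084 bp from the gene's start, with replicate signals of 38.0, 31.7 and 55.6 and all 3 replicates in the top 3392. The peak 2L:19140806-19141215 (96.2, rank 2530) had replicate signals of 25.6, 39.1 and 33.8 and ranks of 4356, 1433 and 3326, so replicate 1 did not support it at that depth of the list. The remaining 2 lay upstream, among neighbours. The summit of 2L:19133407-19133816 (106.6, rank 2107) was 204 bp from the brat TSS and 129 bp from that of Polr1D, an RNA polymerase subunit gene in whose intron it fell. Its replicate signals were 43.7, 23.2 and 44.7. The peak 2L:19131773-19132182 (93.7, rank 2652) was 1838 bp upstream of brat and 24 bp from the TSS of AsnRS, an asparaginyl-tRNA synthetase gene, with replicate signals of 30.3, 21.3 and 48.7. In replicate 2 these 2 upstream peaks ranked 4099 and 4885, outside the top 3392. Both internal TSSs of brat also had a weaker pooled region close by, at 247 bp (59.2, rank 5499) and 300 bp (47.2, rank 8053).

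Ordered by the mean relative signal of the strongest peak, elav (2.85 ± 0.541) stood first, then brat (1.83 ± 0.127), Rbp9 (1.22 ± 0.355), pros (1.08 ± 0.410), scrt (0.829 ± 0.0998) and nerfin-1 (0.694 ± 0.189; SD, n = 3 each). The places of Rbp9 and pros rest on peaks at their neighbours' TSSs, those of Rrp1, gammaTub23C and mgr. The nerfin-1 peak was also nearest to another gene, mat. The peak at a TSS of pros itself had 0.678 ± 0.224 (SD, n = 3), which would place pros last. elav was above brat in 3 of 3 replicates. Rbp9 and pros differed by less than their SDs, and pros and scrt, and scrt and nerfin-1, by less than the larger SD of the pair. With 3 replicates an exact two-sided sign-flip test cannot give a p below 0.25, so no test of these differences was made.

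**Figure D3:**
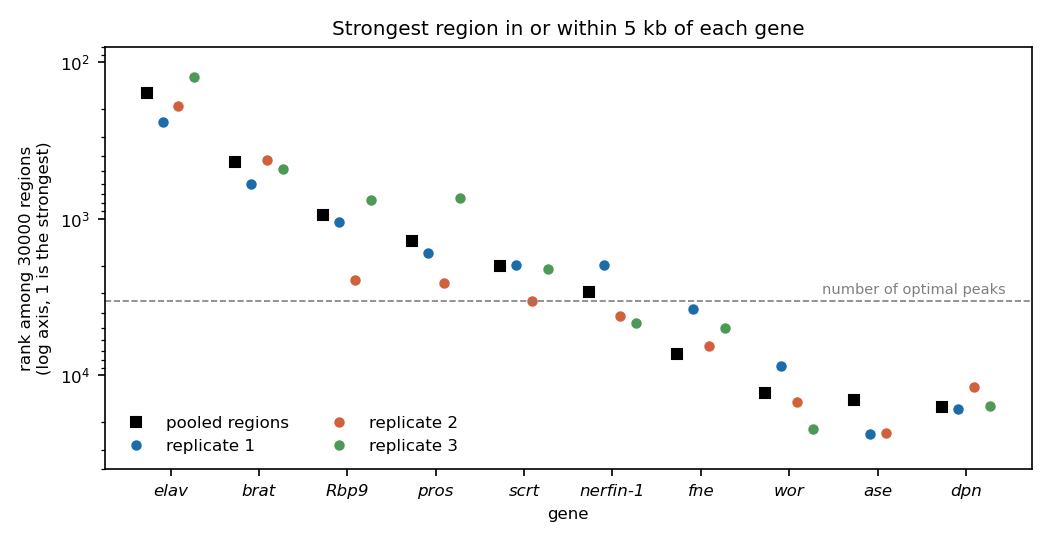
Rank (vertical, log axis, strongest at the top) of the strongest region in or within 5 kb of each of the 10 genes, among the 30000 regions of the pooled list (squares) and of each replicate (circles); the dashed line marks 3392, the number of optimal peaks. elav and brat are above the line by a wide margin in every list, and fne, wor, ase and dpn are below it in every list in which they have a region.

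The neuroblast genes gave the weakest regions of the group. wor (FBgn0001983, 2L:15423297-15425580, minus strand), a Snail-family zinc-finger gene, had 2 pooled regions, 1 in its coding sequence (signal 35.8, rank 13075) and 1 lying 372 bp upstream (25.0, rank 24723). Its strongest replicate regions ranked 8712, 14883 and 22260, each at a different place. ase (FBgn0000137, X:460747-463176, plus strand), a bHLH gene of the achaete-scute complex, had 1 pooled region, 2795 bp upstream in an intron of CG32816 (33.8, rank 14530). Replicate 1 had 1 region at ase (11.9, rank 23703), replicate 2 had 1 (9.20, rank 23563), and replicate 3 had none.

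dpn (FBgn0010109, 2R:8228971-8232330, minus strand) encodes a bHLH repressor of the Hes family that maintains neuroblasts. It had 3 pooled regions: 2206 bp upstream (signal 32.1, rank 16031), 154 bp upstream (31.0, rank 17033) and in its coding sequence (26.3, rank 22731). Its strongest replicate regions ranked 16402, 11877 and 15862. All 6 pooled regions of the 3 neuroblast genes had a −log10 q of at most 0.596, and none of the replicates placed a region of these genes in its top 3392. A rank of this order lies deep in lists made to include background, so these files do not separate such regions from background, and the lack of a peak says nothing of weak sites.

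Longer genes held a peak more often, and the 10 genes fall in all 3 of the length classes used. Among coding genes of up to 5 kb, 39.5% of 10463 had an optimal peak by the gene rule, and of nerfin-1, ase, wor and dpn, all in that class, 1 of 4 did. Between 5 and 20 kb the share was 53.9% of 2469 genes, and elav, Rbp9 and scrt, 3 of 3, had a peak. Above 20 kb it was 58.3% of 1013 genes, and 2 of 3, pros and brat but not fne, had a peak. In the middle class, 9.64% of genes had 3 or more peaks, as elav did. By the promoter rule the shares were 15.8% up to 5 kb, 26.3% between 5 and 20 kb and 25.3% above 20 kb. The genes with a promoter peak, elav, scrt, pros and brat, are all longer than 5 kb. The part of length in the differences between the neural genes was not tested.

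The 81 pooled regions at the 10 genes amounted to 2.64 per 10 kb over 307.1 kb of windows, against 2.24 per 10 kb over all arms. The density was 5.30 at nerfin-1, 4.83 at brat, 4.58 at elav and 3.80 at Rbp9, and at most 2.25 at each of the other 6. Of the 81, 17 overlapped an optimal peak. A −log10 q of 2 or more was reached by 17, which are the 14 optimal peaks and 3 others, the regions described at Rbp9, nerfin-1 and brat. Each replicate on its own gave a like number of regions at the 10 genes, 80, 77 and 79 in replicates 1, 2 and 3 (78.7 ± 1.53, SD, n = 3), of which 13, 12 and 12 were in the top 3392 (12.3 ± 0.577, SD, n = 3).

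**Figure D4:**
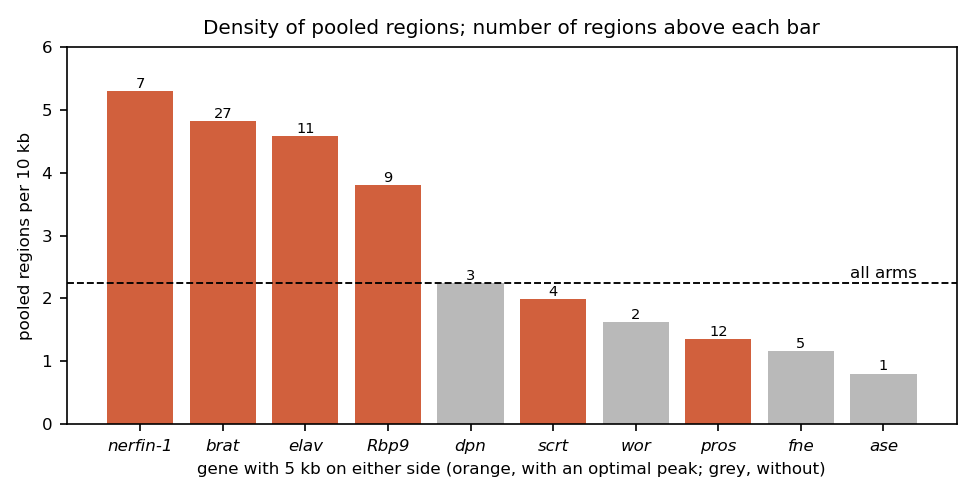
Pooled regions per 10 kb (vertical axis, from 0) in each gene with 5 kb on either side, and the number of regions above each bar; orange, genes with an optimal peak; grey, genes without; dashed line, 2.24 per 10 kb over all arms. nerfin-1, brat, elav and Rbp9 lie above the line, dpn at it, and scrt, wor, pros, fne and ase below it.

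Several peaks counted for a neural gene lay closer to another one. Of the 14, 5 had their nearest coding TSS in one of the 10 genes (2 at elav, 1 each at scrt, pros and brat), and 9 were nearest to a neighbour. By this stricter measure 4 of the 10 genes held a peak (40%), beside 18.2% of coding genes. The 14 peaks were 57.1% promoter-proximal (8 within 500 bp of any coding TSS), against 58.8% of all optimal peaks. By annotation 7 summits were intronic, 6 intergenic and 1 in a 5′ UTR, so 50% were in introns against 39.6% of all optimal peaks, with none in coding sequence, against 0.531%. The 64 pooled regions apart from the optimal peaks were placed otherwise, with 12 (18.8%) in coding sequence, 7 in 3′ UTRs and 26 (40.6%) in introns. With 14 peaks, each is 7.14% of the total, so these shares are too coarse to show a likeness to all peaks or a difference from them.

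The sequences printed above differ in what they hold. The elav intron window has 3 matches to GAGAG, with 2 further matches to GNCGNC. The upstream elav window has 1 match to GNCGNC besides 1 match to the Medea motif GTCTG. The scrt window has no match to any of the 9 motifs. The brat upstream window, which is shared with Polr1D, has the single TATCGAT of the 14 windows, besides 1 match to the Mad motif GNCGNC. The window of the strongest brat peak has 2 matches to CGATA, besides 1 match each to the Trithorax-like, Medea and simple repeat motifs. The nerfin-1 window has 1 match to GAGAG, besides 1 match to the Medea motif.

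Over the 14 windows of 201 bp, GNCGNC was found in 7 (50%), against 28.3% of all optimal peaks and 46.3% of the remaining pooled regions. GAGAG was in 5 (35.7%) against 24.7% of all optimal peaks, and GTCTG in 3 (21.4%) against 20.1%. CGATA was in 3 (21.4%) against 35.7%, and TATCGAT in 1 (7.14%) against 12.7%. CAGCTG was in 1 against 11.4%, CACACA in 1 against 16.1%, and CAGGTG and CAGGTAG in none, against 5.66% and 0.884%. The mean GC content was 37.1% in the 14 windows and 38.6% in all optimal peaks. A match says only that the letters are present, and 14 windows are too few to place these shares apart from those of all peaks.

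To set the 10 genes among others of the same process, 55 further genes of neurogenesis were counted. An optimal peak lay within 500 bp of a TSS at 8 of the 55 (14.5%), beside 18.4% of coding genes, and in the gene or within 5 kb at 19 (34.5%), beside 43.4%. When regions shared by the top lists of 2 replicates took the place of the optimal list, the promoter count was 4 without replicate 1, 7 without replicate 2 and 4 without replicate 3. That shared list was also shorter (2301, 2391 and 2285 regions), and the share of all coding genes was then 12.4%, 13.6% and 12.8%. Genes of asymmetric division had a peak in 4 of 9 cases by the promoter rule and in 7 of 9 by the gene rule. These were numb (the Notch antagonist that is segregated to a daughter, signal 137.7), stau (the RNA-binding protein Staufen, 107.5), aPKC (the polarity kinase, 168.8) and par-6 (its partner, 244.8, with CG8188 the nearer TSS), and by the wider rule also baz, insc and pins. The strongest insc peak lay 57 bp from the TSS of sktl, and the pins peak, outside pins, lay 5 bp from that of wdb. The baz peak, inside the gene, had signal 419.9 at rank 123 and lay 18710 bp from the nearest coding TSS.

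The other classes had fewer. Of 8 proneural genes, da alone had a peak, at its promoter (117.3), and none of the achaete-scute genes on the list did, which is also how ase stood. Of 8 neuroblast and intermediate progenitor genes, wech (83.7) and lola (251.2, relative signal 1.90 ± 0.363, SD, n = 3) had a promoter peak. None of 8 temporal genes had one, and 2 (grh and chinmo) had a peak by the gene rule. Among 7 neuroectoderm genes 0 had a promoter peak and 1 (Dr) had a peak by the gene rule, and among 3 RNA regulators the figures were 0 and 1 (pum). Of 8 genes of neuron differentiation, none had a promoter peak and 4 (Syx1A, nSyb, Appl and brp) had one by the gene rule, the strongest at Syx1A (syntaxin, 201.7), where eIF4EHP had the nearer TSS. The nSyb, Appl and brp peaks also lay outside these genes. Their nearest coding TSSs were those of Bgb (179 bp), CG4293 (3148 bp) and CG1888 (5190 bp). The Appl peak is the weakest of the 3 counted for elav (97.1, rank 2492), so it enters both counts, and 3 of these 8 genes had a peak apart from it. Of 4 glial genes, moody, a receptor gene of the blood-brain barrier, had a promoter peak at 453.2, rank 104 and a relative signal of 3.51 ± 0.630 (SD, n = 3), the highest of the list and above the elav upstream peak at 2.85 ± 0.541 (SD, n = 3).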

How the data were processed

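The data are anti-GFP ChIP-seq peak lists from 3 biological replicates of Dad-GFP embryos; fragments were sonicated to 200 to 800 bp, per the labels. Per the file listings, 30000 regions were called by the authors against a control alignment on each replicate and on the pooled replicates, and kept an optimal list by an irreproducible discovery rate threshold. Per the file listings, the deposited signal is the caller's value per region, the deposited −log10 q value is its significance, and the deposited summit offset counts bp from the region's start. The aligner, the caller, their versions and the cutoff were not given in the sources used here. Controls are not analysed here. No read counts are given, so depth is unknown; a −log10 q of 2 or more was held by 3927, 6376 and 6410 regions in replicates 1, 2 and 3.

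Summits were assigned to genes (Ensembl release 115, BDGP6.54) with Python 3.11.15 and pandas 2.3.3, by the gene body with 5 kb on either side and by 500 bp around TSSs. A replicate supported a peak if 1 of its top 3392 regions overlapped it by at least 1 bp. The signal of a peak in a replicate was that of the strongest overlapping region among all 30000 regions of that replicate. The background of each count is the same count over all 13945 coding genes; the counting script was tested on simulated data. The 10 genes and the lists were chosen with earlier results of these data known. Named genes were the 10 members, list genes with a promoter peak, the 5 list genes of highest signal, and genes whose TSS is nearest to a member's peak. Other genes in counts of 5 or fewer (insc, pins, grh, chinmo, Dr, pum, nSyb, Appl and brp) were named after their values were seen. So were neighbours of listed genes (CG8188, sktl, wdb, eIF4EHP, Bgb and CG1888). Of 56 listed neurogenesis genes, 55 were matched in the annotation and 1 is not analysed here. Because there is 1 group, p-values were not computed. The alternatives were other distances, overlaps, list lengths and scalings, and leaving out each replicate.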

Additional observations from a re-analysis of the deposited data

How the results depend on the processing

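Of 10 genes, 6 held an optimal peak, and 3 did when only the gene body was counted, beside 9.92% of coding genes under that rule. Those 3, elav, pros and brat, are longer than 5 kb, whereas 10463 of the 13945 coding genes are not. Shares by gene length were not computed for the gene body alone, so the 2 figures are not matched for length. The 14 peaks became 9 within 2 kb, 5 within the gene body, 6 among the 1696 strongest optimal peaks and 5 by nearest coding TSS; regions shared by 2 replicates, leaving 1 out, numbered 9 to 10. The 4 promoters became 1 (elav) among the 1696 strongest, beside 9.92% of coding genes, and 2 to 3 with a replicate left out. The 8 peaks supported by all 3 replicates became 5 with 50% reciprocal overlap and 14 with all 30000 regions. The 12.3 top regions per replicate became 5.33 within gene bodies, 6 with the top list cut to 1696 and 20.7 with it doubled. The 81 pooled regions became 48 within gene bodies and 17 at a −log10 q of 2 or more. Of the neurogenesis list, the gene rule count of 19 became 7 within gene bodies and 12 among the 1696 strongest (26.5% of coding genes), and the promoter count of 8 became 5 within 250 bp (15.3% of coding genes), 5 among the 1696 strongest and 4 to 7 with a replicate left out. Motif counts moved with the window, and the relative signals of the strongest peaks moved by less than their SD under every scaling tried. The cause of these moves beyond the narrower or wider rule was not tested. No paired analysis of groups was possible because the 3 replicates form 1 group. Peaks were compared by their order within replicates, and by the mean and SD of the relative signal over replicates. Depth is unknown, and intervals that need it are not given.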
